A study of Mus musculus with 18 samples.

Results

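The gene segments of the alpha and beta chains of the T-cell receptor were followed in RNA sequencing counts of sorted mouse T-lineage cells. Members were all rows whose symbol began with Trav, Traj, Trbv, Trbd or Trbj and a digit, together with the constant genes Trac, Trbc1 and Trbc2, provided that at least 1 count was present in any library. This gave 193 of 43280 genes: 87 Trav, 59 Traj, 28 Trbv, 2 Trbd and 14 Trbj segments and the 3 constant genes. Another 29 rows matched the symbols and held no count. Of the 193 members, 115 passed the filter on low counts and 78 did not.

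The iRTE group (n = 5) held CD8+ cells, and so did the Artificial CD8 group (n = 5), while the CD4+CD8+ group (n = 3) held cells that carry both coreceptors. All 3 were grown from a source the labels call Pmel iPSC (induced pluripotent stem cells) on OP9-DL1, a stromal line that carries a Notch ligand and drives T-cell development in a dish. The splenic CD8 group (n = 5) was naive CD8+ cells taken directly from spleens of transgenic mice. The labels do not spell out iRTE. A 3D thymic culture named in the design text falls to iRTE only by elimination, since each growth protocol names OP9-DL1, those of the splenic samples included. The labels name no treatment, no age of the mice and no transgene. Nothing says whether libraries of a group came from separate cultures or animals, so every p-value measures only the spread between these samples. Cells were sorted for CD45, CD4, CD8 and the alpha-beta receptor, and those staining for NK1.1, the gamma-delta receptor or CD11c were dumped.

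An alpha-beta receptor is assembled during thymic development, when RAG recombinase joins a V, a D and a J segment into a beta chain exon and a V and a J segment into an alpha chain exon. A productive beta chain stops further joining at its locus, whereas the alpha locus can rearrange repeatedly, moving from V segments close to the J cluster to more distant V segments. The spliced V(D)J exon is read together with a constant gene, so V counts in RNA point to the receptors a population transcribes. Counts on D and J rows do not tell rearranged from unrearranged or unspliced RNA, so they are not read as receptor use. A receptor supplied as a rearranged transgene, such as pmel-1, which recognises the melanocyte antigen gp100, narrows the use of V segments. The pmel-1 beta chain is known to use the V-beta segment named Trbv14, and its alpha chain a segment of the Trav7 family.

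Total counts ran from 11132768 to 19305751 per library. The Trbv total held between 51742 and 150556 counts and the Trav total between 535 and 2311 counts, so alpha shares carried far more counting error. The widest 95% Wilson interval of a library extended 0.187 percentage points to either side for the Trbv14 share and 2.98 points for the Trav21-dv12 share. These intervals cover counting error only. In bulk samples, fewer cells using a segment and less RNA per cell cannot be told apart. The 8 alpha-beta T-cell markers summed to between 3577 and 7677 CPM (counts relative to the library total after scaling) in all libraries. Cd4 was at 0 in every iRTE library. Cd5, also on this list, was at 4.00 to 13.1 CPM in iRTE and 91.0 to 105 CPM in splenic libraries. Artificial CD8 libraries had 55.4 to 57.5 CPM of Cd5, and CD4+CD8+ libraries 58.2 to 78.6 CPM. Of the 8 markers, 3 were called higher and 2 lower in iRTE than in splenic cells (edgeR adjusted p under 0.05). Among all genes tested, 29.2% were higher and 29.0% lower. The 5 genes listed as stromal markers were Col1a1, Col1a2, Col3a1, Sparc and Thy1. They summed to 157 to 340 CPM in iRTE, 127 to 162 CPM in Artificial CD8 and 160.1 to 222 CPM in CD4+CD8+, against 39.05 to 46.7 CPM in splenic libraries. Thy1 is also made by T cells, so this sum does not measure stroma. Against splenic cells, 4 of 4 genes tested were higher in CD4+CD8+, 2 in Artificial CD8 and 1 in iRTE cells (edgeR adjusted p under 0.05). One other comparison with spleen was lower, with 1 gene in iRTE. Over all genes, 28.9, 30.3 and 29.2% were higher. In iRTE over CD4+CD8+ cells 3 were lower and 0 higher, against 12.3 and 11.8% of all genes. Col1a1 and Col3a1 were at 0 in every iRTE library, and Col1a2 and Col3a1 in every splenic library. The 6 B-cell markers summed to 3.45 to 7.10 CPM in iRTE, 2.84 to 6.87 CPM in Artificial CD8 and 4.69 to 5.79 CPM in CD4+CD8+, against 33.4 to 46.5 CPM in splenic libraries, with Ms4a1 and Pax5 at 0 in all cultured libraries. The part of other cells in the differences from spleen was not tested. Short names in the labels differ in style between iRTE 1 to 3 and iRTE 4 and 5, and the labels name no batch, so values are also given without either set where that changes a call.

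The V segments on which the results turn are shown by their last 90 bases, 5′ to 3′, from the GENCODE M21 transcripts of build GRCm38. Capitals mark the last match to TANNNNTGN on the printed strand, which holds the codons for the conserved tyrosine and cysteine just before the V segment meets its D or J partner. Trbv segments lie on chromosome 6 and Trav segments on chromosome 14. The motif was present in the last 90 bases of 108 of 108 Trav and 20 of 22 Trbv genes annotated as functional V genes.
Trbv14: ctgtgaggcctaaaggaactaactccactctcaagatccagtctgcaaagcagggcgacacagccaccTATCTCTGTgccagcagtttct
Trbv12-2: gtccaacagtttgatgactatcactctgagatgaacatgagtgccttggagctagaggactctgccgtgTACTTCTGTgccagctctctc
Trbv15: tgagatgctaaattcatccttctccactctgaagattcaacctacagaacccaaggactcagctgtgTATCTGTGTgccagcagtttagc
Trav21-dv12: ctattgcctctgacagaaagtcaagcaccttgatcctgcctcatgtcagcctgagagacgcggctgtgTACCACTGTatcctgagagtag
Trav15-2-dv6-2: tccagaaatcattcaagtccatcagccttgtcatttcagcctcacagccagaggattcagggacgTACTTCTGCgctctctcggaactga
Trav8-2: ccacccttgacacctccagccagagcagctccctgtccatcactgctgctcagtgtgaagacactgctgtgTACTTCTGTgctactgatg
The next lines show whole J and D segments that stood out, with the J motif in capitals, which is TTN, GGN, any codon and GGN in a row. It encodes the phenylalanine and glycine motif that follows the antigen-contacting loop, and was found in 44 of 51 Traj and 11 of 13 Trbj genes.
Traj40: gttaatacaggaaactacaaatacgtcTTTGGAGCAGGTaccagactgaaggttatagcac
Trbj1-1: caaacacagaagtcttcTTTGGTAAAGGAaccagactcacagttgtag
Trbd1: gggacagggggc

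Near-identical copies matter for counting. Each V segment was cut into windows of 50 bases, and each window was looked up in all other V segments. Trbv14, Trbv15, Trav17 and Trav21-dv12 shared no window with another segment, and Trbv12-2 shared 1.19% of its windows. All 22 Trav rows without any count had at least 95.5% of their windows in another Trav segment. The 87 Trav members shared a median of 51.4%, and 45 of them shared 50% or more. None of the 7 Trbv rows without a count shared a window. How the authors' counting treated reads that match several segments is not given in the sources used here, so single members of such families, the Trav7 family among them, are uncertain.

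Among the V-beta segments, use was restricted to Trbv14 in every library, and slightly more so in the cultured CD8+ cells. In iRTE libraries 1 to 5, Trbv14 held 98.0, 97.7, 97.6, 96.5 and 97.6% of Trbv counts. The Artificial CD8 libraries gave 97.5, 97.6, 97.6, 97.8 and 97.6%, the CD4+CD8+ libraries 95.6, 95.2 and 95.05%, and the splenic CD8 libraries 95.2, 95.04, 95.1, 95.4 and 95.04%. All iRTE and all Artificial CD8 libraries lay above every CD4+CD8+ and every splenic library. The share averaged 97.5 ± 0.557% in iRTE, 97.6 ± 0.121% in Artificial CD8, 95.3 ± 0.272% in CD4+CD8+ and 95.2 ± 0.158% in splenic CD8 cells (SD). Exact two-sided permutation tests over libraries, adjusted over 24 share tests, gave a difference of 2.32 points for iRTE minus splenic cells and 2.48 points for Artificial CD8 minus splenic cells (adjusted p = 0.0272 each). Against CD4+CD8+ cells the differences were 2.21 points for iRTE and 2.36 points for Artificial CD8 (exact permutation, adjusted p = 0.0612 each), where 5 libraries against 3 cannot give a raw p below 0.0357. The remaining pairs, iRTE minus Artificial CD8 (-0.155 points, exact permutation, adjusted p = 0.787) and CD4+CD8+ minus splenic cells (0.115 points, adjusted p = 0.545), did not pass. Leaving out a library of either group compared lowered the number of possible arrangements, so that the smallest raw p against spleen became 0.0159. The share calls against spleen then stood at an adjusted p of 0.0544, except without iRTE 5, where those of iRTE over splenic cells held at 0.0423 (exact permutation). The called differences kept their sign in each case.

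**Figure D1:**
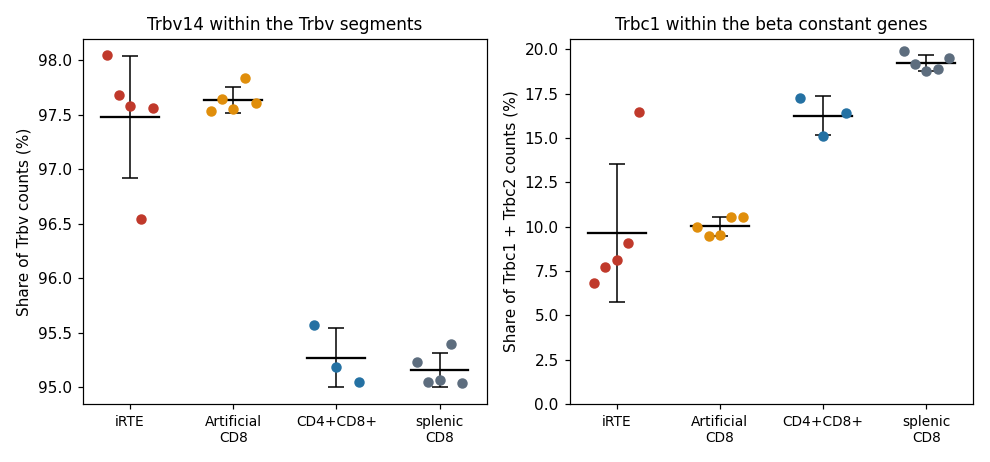
Share of Trbv counts held by Trbv14 (left, axis starting above 0) and share of beta constant counts held by Trbc1 (right), in percent, by group; points are libraries, lines are means and bars are SD. The iRTE and Artificial CD8 libraries lie at 96.5 to 98.0% for Trbv14, above all CD4+CD8+ and splenic libraries, and the iRTE library at 16.5% for Trbc1 stands away from the other 4.

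The level of Trbv14 RNA was also higher in all cultured groups than in spleen. It reached 7733, 7366, 8393, 5114 and 5819.7 CPM in iRTE, 6898, 7195, 6963, 7096 and 7577 CPM in Artificial CD8 and 8641, 6677 and 6402 CPM in CD4+CD8+ libraries, against 3932, 3634, 3801, 4186 and 4176 CPM in splenic libraries. No cultured library overlapped the splenic ones. The log2 fold change over splenic cells was 0.80 ± 0.14 in iRTE (SE; edgeR adjusted p = 2.06e-05), 0.86 ± 0.05 in Artificial CD8 (adjusted p = 7.66e-06) and 0.88 ± 0.14 in CD4+CD8+ cells (adjusted p = 3.31e-05). Between cultured groups the Trbv14 log2 fold changes lay between -0.07 and -0.02 and none passed.

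The few V-beta counts outside Trbv14 were led by Trbv12-2 in every library, at 52.8 to 81.6% of the remainder. Trbv12-2 had 93.8, 97.8, 109.9, 124 and 119 CPM in iRTE, 117, 117, 117, 106 and 128 CPM in Artificial CD8, 318, 249.7 and 241 CPM in CD4+CD8+ and 144, 133, 144, 151 and 165 CPM in splenic libraries. CD4+CD8+ cells were highest without overlap. Its level fell in iRTE over CD4+CD8+ cells (log2 fold change -1.31 ± 0.15, edgeR adjusted p = 2.33e-07) and in Artificial CD8 over CD4+CD8+ cells (-1.20 ± 0.13, adjusted p = 3.09e-06), and rose in CD4+CD8+ over splenic cells (0.87 ± 0.14, adjusted p = 4.48e-06). Relative to splenic cells, iRTE (-0.44 ± 0.09, adjusted p = 0.00134) and Artificial CD8 (-0.33 ± 0.07, adjusted p = 0.00874) were lower. On iRTE 4 and 5 alone, the value for iRTE no longer passed (log2 fold change -0.27; edgeR adjusted p = 0.077). Trbv13-1 followed at 29.6 ± 11.9 CPM in iRTE, 42.4 ± 3.13 in Artificial CD8, 50.1 ± 9.62 in CD4+CD8+ and 42.5 ± 2.93 in splenic cells (SD).

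Trbv15 marked a part of the iRTE libraries. Its counts were 0, 157, 506, 0 and 1 in iRTE libraries 1 to 5, 1, 0, 0, 0 and 3 in Artificial CD8, 9, 16 and 10 in CD4+CD8+ and 1, 0, 6, 3 and 0 in splenic libraries. In iRTE 3 this was 21.5% of the Trbv counts outside Trbv14, and iRTE 2 and 3 alone stood above 16 counts. The groups therefore overlapped, although edgeR called iRTE higher than Artificial CD8 (adjusted p = 0.00169) and splenic cells (adjusted p = 0.00214). On iRTE 4 and 5 alone both log2 fold changes turned negative, at -0.41 and -1.82, with neither passing. Trbv13-2 also varied within iRTE, with 8.72, 16.9, 29.4, 24.4 and 0.960 CPM, against 6.49, 5.80, 6.99, 5.08 and 5.72 CPM in Artificial CD8, 18.1, 11.7 and 15.5 CPM in CD4+CD8+ and 2.21, 2.83, 2.67, 1.51 and 3.40 CPM in splenic libraries. iRTE 5 was the lowest library and iRTE 3 the highest. Trbv13-2 was higher in CD4+CD8+ than in splenic cells without overlap (log2 fold change 2.59 ± 0.26, edgeR adjusted p = 0.000856). In iRTE over splenic cells it was also called, with overlapping libraries (2.67 ± 0.88, adjusted p = 0.000288). Trbv16 was at 1.44 ± 1.22 CPM in iRTE, 1.03 ± 0.517 in Artificial CD8, 4.07 ± 1.99 in CD4+CD8+ and 0.827 ± 0.164 in splenic cells (SD).

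Counts on Trbd1 and on all 7 rows of the first J-beta cluster, unlike those of Trbv14, were highest in spleen. Trbd1, a short D segment upstream of the first J-beta cluster, had 9.20, 6.75, 3.19, 10.8 and 33.6 CPM in iRTE, 7.96, 8.39, 9.35, 7.31 and 8.09 CPM in Artificial CD8 and 13.1, 10.9 and 8.02 CPM in CD4+CD8+ libraries, against 58.6, 55.4, 58.5, 58.2 and 55.4 CPM in splenic libraries. The ranges did not overlap with spleen, and iRTE 5 lay between the other iRTE and the splenic libraries. Relative to splenic cells Trbd1 fell by 2.16 on the log2 scale in iRTE (edgeR adjusted p = 0.000126), by 2.80 in Artificial CD8 (adjusted p = 7.89e-06) and by 2.42 in CD4+CD8+ cells (adjusted p = 0.000366). Trbd2, upstream of the second cluster, was at 1.79 ± 0.428 CPM in iRTE, 2.25 ± 0.206 in Artificial CD8, 2.96 ± 0.215 in CD4+CD8+ and 2.99 ± 0.392 in splenic cells (SD), and CD4+CD8+ over splenic cells did not pass (log2 fold change -0.01 ± 0.10, edgeR adjusted p = 0.972).

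The 14 Trbj rows summed to 132, 102, 83.7, 191 and 412 CPM in iRTE, 212, 229.6, 218, 234 and 202 CPM in Artificial CD8 and 155, 168 and 153 CPM in CD4+CD8+ libraries, against 686, 703, 734, 657 and 645 CPM in splenic libraries. Every cultured library was below every splenic library, and iRTE 5 came closest. Trbj1-1 had 50.2, 26.4, 10.4, 43.3 and 151 CPM in iRTE, 37.1, 40.8, 37.8, 37.5 and 39.2 CPM in Artificial CD8, 49.0, 42.5 and 36.6 CPM in CD4+CD8+ and 170.0, 157, 157, 155 and 174 CPM in splenic libraries. No cultured library reached the splenic range, and iRTE 5 missed it narrowly. Its log2 fold change over splenic cells was -1.53 ± 0.63 in iRTE (edgeR adjusted p = 0.00395), -2.08 ± 0.04 in Artificial CD8 (adjusted p = 0.000311) and -1.93 ± 0.13 in CD4+CD8+ cells (adjusted p = 0.00354). For Trbj1-2 the same 3 values were -2.38, -2.45 and -2.86, and for Trbj1-5 they were -2.42, -1.81 and -2.98; all 6 passed. The first cluster held 75.5 ± 4.27% of Trbj counts in iRTE, 74.2 ± 1.71% in Artificial CD8, 71.0 ± 3.83% in CD4+CD8+ and 87.3 ± 0.919% in splenic cells (SD). In the second cluster, Trbj2-1 did not follow this order, with 18.5, 14.4, 16.4, 10.4 and 23.3 CPM in iRTE, 17.9, 17.5, 14.9, 16.2 and 18.6 CPM in Artificial CD8, 23.9, 15.1 and 16.9 CPM in CD4+CD8+ and 14.5, 12.7, 16.0, 15.5 and 15.6 CPM in splenic libraries. These overlapped, and no comparison with spleen passed (edgeR adjusted p from 0.205 to 0.487). Trbj2-1 was chosen after its values were seen.

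For Trbj1-2 and Trbd1, values between cultured groups turned with the iRTE libraries used. For Trbj1-2 the log2 fold change of iRTE over Artificial CD8 was 0.06 ± 0.43 (edgeR adjusted p = 0.897) with all libraries, but -0.57 without iRTE 5 (adjusted p = 0.00767). For Trbd1 in iRTE over CD4+CD8+ cells it was 0.27 with all libraries and -0.75 with iRTE 1 to 3 alone (adjusted p = 0.0288).

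The beta constant genes Trbc1 and Trbc2 belong to the first and the second cluster. Trbc2 had 7778, 7373, 8484, 4883 and 5765 CPM in iRTE, 7077, 7294, 7042, 6774 and 7398 CPM in Artificial CD8 and 9501, 6868 and 6524 CPM in CD4+CD8+ libraries, against 4493, 4113, 4270.1, 4637 and 4805 CPM in splenic libraries. It rose over splenic cells in iRTE (log2 fold change 0.62 ± 0.15, edgeR adjusted p = 0.000659), Artificial CD8 (0.67 ± 0.05, adjusted p = 0.00027) and CD4+CD8+ cells (0.77 ± 0.17, adjusted p = 0.000293). On iRTE 4 and 5 alone, the value for iRTE was 0.26 and did not pass (adjusted p = 0.0808). Trbc1 had 571, 618, 749, 489 and 1137 CPM in iRTE, 784, 764, 742, 797 and 871 CPM in Artificial CD8, 1983, 1221 and 1281 CPM in CD4+CD8+ and 1114, 973, 987, 1079 and 1166 CPM in splenic libraries. It was lower in iRTE than in CD4+CD8+ cells without overlap (log2 fold change -1.07 ± 0.31, edgeR adjusted p = 0.000769) and lower in iRTE than in splenic cells, with iRTE 5 inside the splenic range (-0.58 ± 0.22, adjusted p = 0.0102). On iRTE 4 and 5 alone the Trbc1 value against splenic cells was -0.38 and did not pass (adjusted p = 0.196). Artificial CD8 over CD4+CD8+ cells gave -0.92 ± 0.23 (edgeR adjusted p = 0.00539), a call that was lost without CD4+CD8+ 1 (-0.66, adjusted p = 0.0564).

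As a share of both constant genes, Trbc1 held 6.84, 7.73, 8.11, 9.10 and 16.5% in iRTE, 9.97, 9.48, 9.53, 10.53 and 10.54% in Artificial CD8, 17.3, 15.1 and 16.4% in CD4+CD8+ and 19.9, 19.1, 18.8, 18.9 and 19.5% in splenic libraries. Splenic libraries were highest, and iRTE 5 lay within the CD4+CD8+ range. The difference was -9.58 points for iRTE minus splenic cells and -9.23 points for Artificial CD8 minus splenic cells (exact permutation, adjusted p = 0.0272 each). Artificial CD8 minus CD4+CD8+ cells gave -6.25 points, and CD4+CD8+ minus splenic cells gave -2.98 points (exact permutation, adjusted p = 0.0612 each), with no overlap in either pair. Without iRTE 5 the share of iRTE minus Artificial CD8 was -2.06 points, with no overlap (exact permutation, adjusted p = 0.0423), against -0.358 points with it (adjusted p = 0.937). Trbv counts per 100 Trbc counts were 93.4 ± 4.41 in iRTE, 92.6 ± 2.28 in Artificial CD8, 83.9 ± 4.50 in CD4+CD8+ and 75.0 ± 1.43 in splenic cells (SD).

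Counts on the V-alpha segments were spread more evenly than those on the V-beta segments in every library, and the iRTE libraries differed most among themselves. There were far fewer Trav counts per Trac count than Trbv counts per Trbc count. The alpha values thus cover only RNA counted to a Trav row, and reads matching near-identical copies may be missing. Evenness was measured as the effective number of segments, the inverse of the summed squared shares, which is 1 when a segment takes every count. It is given as a description without a test. The effective number of Trav segments was 12.3, 2.4003, 1.71, 9.92 and 7.21 in iRTE libraries 1 to 5, 9.42, 8.99, 8.92, 9.50 and 8.87 in Artificial CD8, 13.5, 13.6 and 16.2 in CD4+CD8+ and 23.6, 24.0, 25.3, 25.7 and 25.2 in splenic libraries. Group means were 6.71 ± 4.62 in iRTE, 9.14 ± 0.296 in Artificial CD8, 14.4 ± 1.57 in CD4+CD8+ and 24.8 ± 0.915 in splenic cells (SD). The Artificial CD8, CD4+CD8+ and splenic libraries formed separate ranges, while the iRTE libraries ran from below the Artificial CD8 range to just under the CD4+CD8+ range.

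The group means kept their order when depth was made equal. After thinning each library to 535 Trav counts, the effective number was 6.69 in iRTE, 9.07 in Artificial CD8, 14.3 in CD4+CD8+ and 24.1 in splenic cells. Summed by family, where near-identical copies count together, it was 4.64 ± 2.52 in iRTE, 6.88 ± 0.356 in Artificial CD8, 9.41 ± 0.508 in CD4+CD8+ and 11.8 ± 0.328 in splenic cells (SD), the same order with a smaller gap from spleen. For the V-beta segments the effective number lay between 1.04 and 1.11 in every library. Trav segments with at least 1 count numbered 37, 32, 29, 23 and 29 in iRTE, 42, 39, 39, 40 and 32 in Artificial CD8, 57, 53 and 57 in CD4+CD8+ and 72, 70, 73, 74 and 71 in splenic libraries. Splenic libraries used the most segments and CD4+CD8+ libraries came next, with no overlap among the 3 groups other than iRTE. Of the 87 Trav members, 34 had no count in any iRTE library, 30 in any Artificial CD8 library, 17 in any CD4+CD8+ library and 3 in any splenic library.

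**Figure D2:**
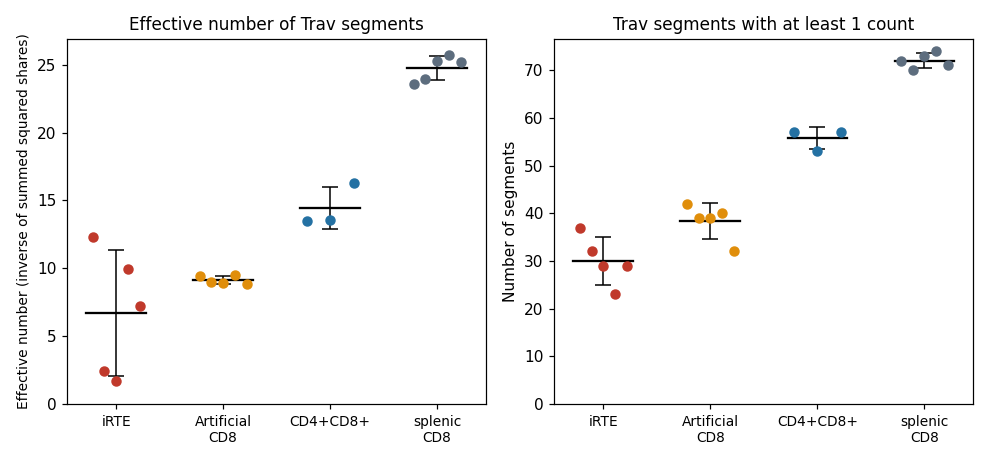
Effective number of Trav segments (left) and number of Trav segments with at least 1 count (right) by group; points are libraries, lines are means and bars are SD. The iRTE libraries range from 1.71 to 12.3 in effective number, and the splenic libraries are highest on both axes, at 23.6 to 25.7 and 70 to 74 segments.

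A single V-alpha segment held most of the Trav counts in iRTE 2 and 3, but not in the other iRTE libraries. There the largest share was 17.6% in iRTE 1 and in iRTE 4, and 25.2% in iRTE 5. Trav21-dv12, the V-alpha segment nearest to the J-alpha cluster, held 8.79, 63.1, 76.1, 17.6 and 0.403% of Trav counts in iRTE libraries 1 to 5, from 47, 634, 1297, 121 and 4 counts. It held 11.4, 10.9, 14.2, 16.4 and 14.99% in Artificial CD8, 10.1, 10.9 and 11.1% in CD4+CD8+ and 6.23, 5.67, 5.13, 5.45 and 4.80% in splenic libraries. iRTE 2 and 3, the libraries that also carried Trbv15, lay far above all others, and iRTE 5 lay below every other library. The share averaged 33.2 ± 34.1% in iRTE, 13.6 ± 2.35% in Artificial CD8, 10.7 ± 0.506% in CD4+CD8+ and 5.45 ± 0.545% in splenic cells (SD). Artificial CD8 minus splenic cells was 8.13 points (exact permutation, adjusted p = 0.0272). iRTE minus splenic cells was 27.7 points and did not pass (exact permutation, adjusted p = 0.169), nor did iRTE minus Artificial CD8 (19.6 points, adjusted p = 0.438) or iRTE minus CD4+CD8+ cells (22.5 points, adjusted p = 0.545). Without iRTE 5, iRTE minus splenic cells was 35.9 points and passed (exact permutation, adjusted p = 0.0423). CD4+CD8+ minus splenic cells was 5.23 points without overlap (exact permutation, adjusted p = 0.0612).

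In CPM, Trav21-dv12 was called higher in iRTE than in splenic cells (log2 fold change 2.43 ± 1.45, edgeR adjusted p = 0.0154) with overlapping libraries. Without iRTE 3 this was 1.34 (adjusted p = 0.128), and with iRTE 4 and 5 alone it was -0.78. In iRTE 5 the leading segment was Trav13-4-dv7, at 4.49, 1.29, 0.528, 3.35 and 25.2% of Trav counts in iRTE libraries 1 to 5, 8.87, 5.50, 4.05, 7.14 and 7.35% in Artificial CD8, 7.50, 7.45 and 5.60% in CD4+CD8+ and 1.82, 1.75, 1.498, 1.68 and 1.62% in splenic libraries. No comparison of the CPM of Trav13-4-dv7 passed with all libraries, and 72.9% of its windows recur in other Trav13 segments.

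**Figure D3:**
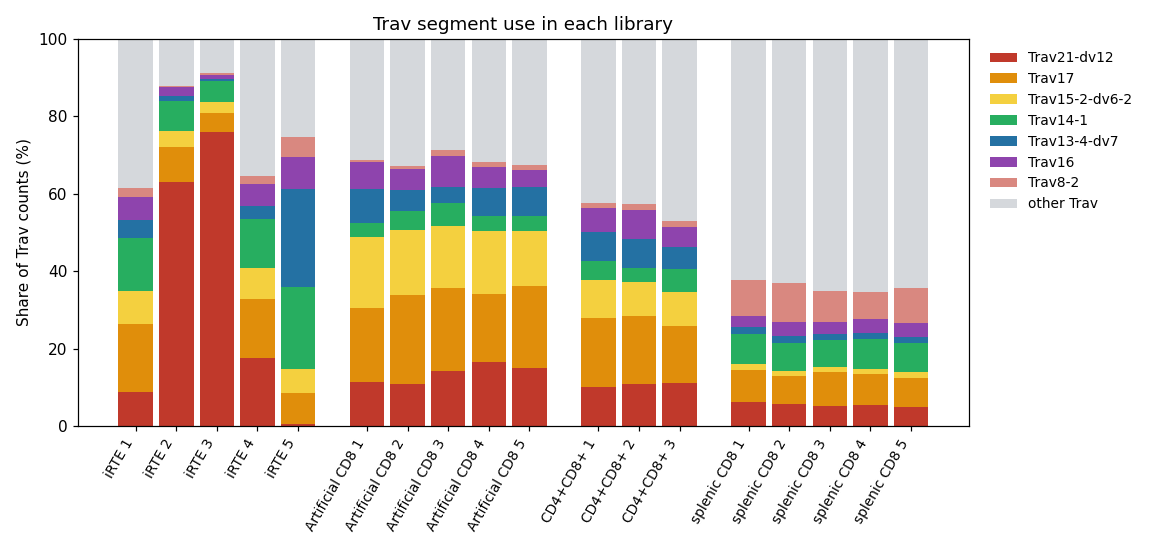
Stacked shares of Trav counts, in percent, for the 7 Trav segments named here and all other Trav segments, with a bar for each library. Trav21-dv12 takes 63.1% of iRTE 2 and 76.1% of iRTE 3, the 5 Artificial CD8 bars resemble each other, and the splenic bars consist mostly of other segments.

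Trav17, which lies in the same J-proximal stretch, led all Artificial CD8 and all CD4+CD8+ libraries. It also led iRTE 1, splenic CD8 3 and splenic CD8 4. It had 9.01, 7.99, 7.08, 6.48 and 5.12 CPM in iRTE, 12.9, 16.7, 16.3, 13.1 and 14.9 CPM in Artificial CD8, 18.2, 13.8 and 9.72 CPM in CD4+CD8+ and 10.4, 8.63, 10.6, 10.498 and 9.68 CPM in splenic libraries. In CPM, every iRTE library lay below every Artificial CD8 and CD4+CD8+ library. By share of Trav counts, iRTE 1 (17.6%) and iRTE 4 (15.1%) lay within the CD4+CD8+ range of 14.6 to 17.8%. The log2 fold change was -1.05 ± 0.16 for iRTE over Artificial CD8 (edgeR adjusted p = 0.000285), -0.97 ± 0.29 for iRTE over CD4+CD8+ cells (adjusted p = 0.0032) and 0.57 ± 0.09 for Artificial CD8 over splenic cells (adjusted p = 0.0153). iRTE over splenic cells gave -0.48 ± 0.15 (edgeR adjusted p = 0.0389), and leaving out any of 7 single libraries ended that call (adjusted p of 0.0561 to 0.0851).

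Trav15-2-dv6-2 was higher in the cultured groups than in spleen, and lowest among them in iRTE. It had 4.41, 3.64, 4.25, 3.43 and 3.90 CPM in iRTE, 12.4, 12.3, 12.2, 12.04 and 10.002 CPM in Artificial CD8 and 10.1, 6.87 and 5.99 CPM in CD4+CD8+ libraries, against 1.73, 1.34, 1.76, 1.51 and 1.78 CPM in splenic libraries. Over splenic cells it rose by 1.27 on the log2 scale in iRTE (edgeR adjusted p = 5.12e-05), 2.85 in Artificial CD8 (adjusted p = 2.04e-09) and 2.23 in CD4+CD8+ cells (adjusted p = 2.31e-07), without overlap. iRTE was below Artificial CD8 (-1.58 ± 0.09, adjusted p = 6.31e-06) and below CD4+CD8+ cells (-0.96 ± 0.23, adjusted p = 0.00444), again without overlap. Artificial CD8 and CD4+CD8+ libraries overlapped and did not pass (0.62 ± 0.23, edgeR adjusted p = 0.081).

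Trav8-2 showed the opposite order. Its level was 1.15, 0.355, 0.885, 0.935 and 3.33 CPM in iRTE, 0.429, 0.617, 1.24, 1.07 and 0.825 CPM in Artificial CD8 and 1.47, 1.34 and 1.05 CPM in CD4+CD8+ libraries, against 11.4, 11.6, 9.77, 8.87 and 11.5 CPM in splenic libraries. Relative to splenic cells it fell by 2.97 in iRTE (log2; edgeR adjusted p = 1.36e-05), by 3.65 in Artificial CD8 (adjusted p = 1.20e-06) and by 3.04 in CD4+CD8+ cells (adjusted p = 0.000118). Trav8-2 was the most used V-alpha segment in splenic libraries 1, 2 and 5.

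In CPM, Trav14-1 set iRTE cells apart from the other cultured cells. It had 6.99, 7.01, 8.41, 5.42 and 13.6 CPM in iRTE, 2.39, 3.45, 4.56, 2.89 and 2.73 CPM in Artificial CD8, 4.93, 2.85 and 3.89 CPM in CD4+CD8+ and 9.83, 8.63, 8.58, 9.89 and 9.51 CPM in splenic libraries. iRTE lay above Artificial CD8 (1.37 ± 0.27, edgeR adjusted p = 0.000438) and CD4+CD8+ cells (1.09 ± 0.31, adjusted p = 0.0157) without overlap, and overlapped splenic cells (-0.16 ± 0.22, adjusted p = 0.603). Relative to splenic cells, Artificial CD8 (-1.53 ± 0.16, edgeR adjusted p = 6.15e-05) and CD4+CD8+ cells (-1.26 ± 0.23, adjusted p = 0.00246) were lower. The call for iRTE over CD4+CD8+ cells was lost without CD4+CD8+ 2 (0.91, adjusted p = 0.0908) or without CD4+CD8+ 3 (1.09, adjusted p = 0.056). Trav16 was at 2.84 ± 1.54 CPM in iRTE, 4.37 ± 1.12 in Artificial CD8, 5.22 ± 1.52 in CD4+CD8+ and 4.16 ± 0.441 in splenic cells (SD), with no comparison past the threshold.

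The Trav7 family holds the V-alpha segment known for the pmel-1 receptor. It took 2.24, 1.59, 1.41, 3.49 and 1.21% of Trav counts in iRTE, 1.54, 1.44, 1.40, 0.961 and 1.40% in Artificial CD8, 4.47, 5.22 and 4.51% in CD4+CD8+ and 6.32, 5.19, 4.90, 6.01 and 7.43% in splenic libraries. iRTE minus splenic cells was -3.98 points and Artificial CD8 minus splenic cells -4.62 points (exact permutation, adjusted p = 0.0272 each). Against CD4+CD8+ cells the differences were -2.74 points for iRTE and -3.38 points for Artificial CD8 without overlap (exact permutation, adjusted p = 0.0612 each). In no library did the family lead the V-alpha segments. Members of the family went different ways. Trav7-4 averaged 0.0374% in iRTE, 0% in Artificial CD8, 1.31% in CD4+CD8+ and 2.06% in splenic cells. Trav7d-5 averaged 1.56% in iRTE, 1.11% in Artificial CD8, 1.72% in CD4+CD8+ and 0.868% in splenic cells. All windows of Trav7d-5 recur in other Trav7 segments. The family share therefore does not give the level of the pmel-1 segment. The shares of these single members were given without a test.

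By position in the locus, the 5 segments from Trav17 to Trav21-dv12, nearest to the J cluster, held 44.4 ± 30.9% of Trav counts in iRTE, 40.7 ± 3.13% in Artificial CD8, 31.1 ± 1.51% in CD4+CD8+ and 17.04 ± 0.767% in splenic cells (SD). The 14 members named as n copies, a duplicated block farther away, held 1.56 ± 1.89% in iRTE, 1.02 ± 0.383% in Artificial CD8, 2.17 ± 0.973% in CD4+CD8+ and 7.99 ± 0.439% in splenic cells. The 27 members named as d copies did not follow this, with 3.30 ± 2.10% in iRTE, 3.28 ± 0.567% in Artificial CD8, 4.87 ± 0.356% in CD4+CD8+ and 4.67 ± 0.711% in splenic cells. The other 41 segments held 50.7 ± 28.8%, 55.0 ± 2.78%, 61.9 ± 1.15% and 70.3 ± 0.718% in the same order. These blocks were chosen after the values were seen and carry no test.

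A dv in a symbol marks a segment that can also join the delta chain, and the counts do not tell these chains apart. The 10 dv segments held 54.3 ± 21.1% of Trav counts in iRTE, 43.9 ± 2.42% in Artificial CD8, 35.9 ± 2.25% in CD4+CD8+ and 17.1 ± 1.03% in splenic cells (SD). Without them, the effective number of the other 77 segments was 5.94 ± 1.06 in iRTE, 5.63 ± 0.588 in Artificial CD8, 9.93 ± 1.92 in CD4+CD8+ and 19.97 ± 0.794 in splenic cells. On the 42 Trav members with under 50% of their windows shared, the effective number was 5.25 ± 3.25 in iRTE, 7.15 ± 0.253 in Artificial CD8, 9.67 ± 0.981 in CD4+CD8+ and 16.4 ± 0.344 in splenic cells. Both restrictions were chosen after the values were seen. Without the dv segments the iRTE libraries ran from 4.91 to 7.53 and overlapped the Artificial CD8 libraries, and all CD8+ cultured libraries lay below the CD4+CD8+ range of 8.71 to 12.1. Of the 7 gamma and delta constant gene symbols looked for, only the gamma genes Tcrg-C1, Tcrg-C2 and Tcrg-C4 had a row in the counts. The delta constant gene Trdc had no row, so its level is not known. These 3 gamma genes summed to 1595 to 2500 CPM in iRTE, 2220 to 2616 CPM in Artificial CD8 and 1797 to 2030 CPM in CD4+CD8+ libraries, against 101 to 117 CPM in splenic libraries. The part of delta chains in the dv counts was not tested.

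How alike 2 libraries were in V-alpha use was described by their shared use, the sum over segments of the lower of both shares after thinning to equal counts. Within a group the median was 47.9% for iRTE, 82.8% for Artificial CD8, 82.1% for CD4+CD8+ and 82.2% for splenic cells. Pairs of iRTE libraries ranged from 20.3 to 82.7%. Only iRTE 2 with iRTE 3, at 82.7%, was as alike as replicates of other groups. Some pairs of iRTE libraries were less alike than libraries of different groups. Between groups the median was 47.0% for iRTE with Artificial CD8, 52.3% for iRTE with CD4+CD8+ cells, 43.7% for iRTE with splenic cells, 75.0% for Artificial CD8 with CD4+CD8+ cells, 45.0% for Artificial CD8 with splenic cells and 55.9% for CD4+CD8+ with splenic cells.

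J-alpha counts were highest in spleen, and Traj40 took a larger share of them in culture. The 59 Traj rows summed to 14.6, 14.4, 11.1, 13.6 and 25.3 CPM in iRTE, 29.5, 33.1, 39.3, 37.9 and 23.2 CPM in Artificial CD8 and 34.9, 28.6 and 26.9 CPM in CD4+CD8+ libraries, against 96.3, 115, 124, 113 and 111 CPM in splenic libraries. Traj40 did not follow this order, with 6.23, 6.75, 4.96, 5.86 and 6.40 CPM in iRTE, 6.25, 6.41, 6.81, 7.97 and 7.63 CPM in Artificial CD8, 12.97, 8.46 and 6.40 CPM in CD4+CD8+ and 7.83, 7.01, 9.14, 8.14 and 8.41 CPM in splenic libraries, and no comparison of it passed (edgeR adjusted p from 0.0597 to 0.487). It therefore made up 42.8, 46.9, 44.8, 42.9 and 25.3% of Traj counts in iRTE, 21.2, 19.4, 17.3, 21.02 and 32.9% in Artificial CD8, 37.2, 29.6 and 23.8% in CD4+CD8+ and 8.13, 6.12, 7.39, 7.20 and 7.56% in splenic libraries. Splenic libraries were lowest without overlap. These shares rest on 125 to 1875 Traj counts per library.

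At the far end of the cluster, Traj2 was lower in all cultured groups than in spleen, and Traj3 in both cultured CD8+ groups. Traj2 averaged 1.496 ± 1.76 CPM in iRTE, 2.61 ± 0.292 in Artificial CD8, 2.23 ± 0.103 in CD4+CD8+ and 6.40 ± 0.940 in splenic cells (SD). Its log2 fold change over splenic cells was -2.06 ± 0.55 in iRTE (edgeR adjusted p = 0.00119), -1.29 ± 0.11 in Artificial CD8 (adjusted p = 0.0215) and -1.52 ± 0.10 in CD4+CD8+ cells (adjusted p = 0.0285). Leaving out splenic CD8 5 ended the call for Artificial CD8 (adjusted p = 0.0517), and leaving out that library or any CD4+CD8+ library ended the call for CD4+CD8+ cells (edgeR adjusted p of 0.0555 to 0.0783). Traj3 averaged 0.860 ± 0.499 CPM in iRTE, 1.73 ± 0.518 in Artificial CD8, 2.45 ± 0.386 in CD4+CD8+ and 3.81 ± 0.779 in splenic cells. It was lower than in splenic cells in iRTE (-2.12 ± 0.31, edgeR adjusted p = 8.44e-05) and in Artificial CD8 (-1.13 ± 0.23, adjusted p = 0.00935), and the CD4+CD8+ value did not pass (-0.63 ± 0.19, adjusted p = 0.195).

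**Figure D4:**
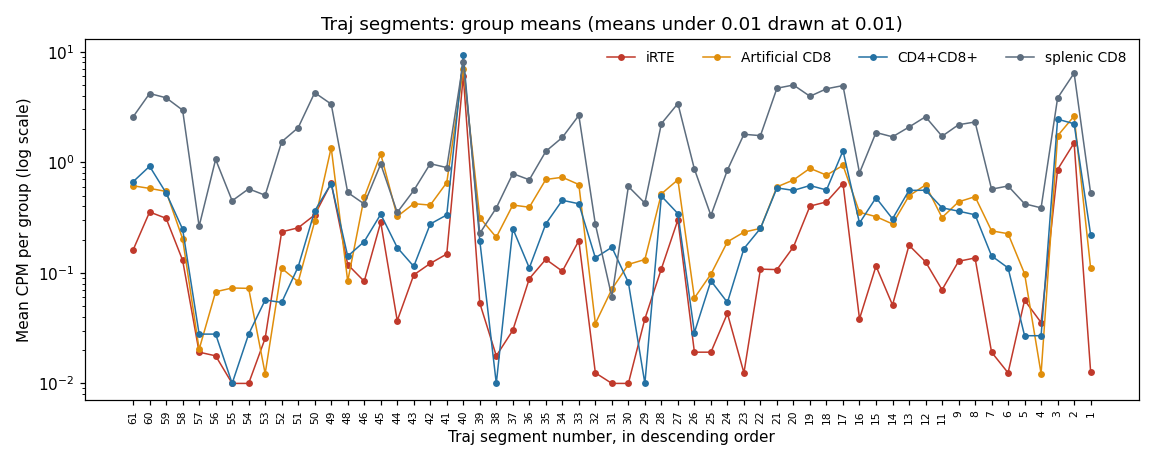
Group mean CPM of each Traj segment on a log axis, ordered by falling segment number, with a line for each group. The splenic line lies above the others at most segments, and all 4 lines meet at Traj40, between 6.04 and 9.28 CPM.

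Trac, the alpha constant gene, was lowest in the iRTE group. It had 525, 450.4, 417, 411 and 248 CPM in iRTE, 472, 481, 532, 512 and 499 CPM in Artificial CD8, 852, 621 and 630.4 CPM in CD4+CD8+ and 539, 515, 550.3, 657 and 622 CPM in splenic libraries. iRTE was lower than CD4+CD8+ cells without overlap (log2 fold change -0.77 ± 0.23, edgeR adjusted p = 0.00236) and lower than splenic cells, which iRTE 1 overlapped (-0.49 ± 0.19, adjusted p = 0.00832). Artificial CD8 cells did not pass against CD4+CD8+ (-0.49 ± 0.15, adjusted p = 0.0577) or splenic cells (-0.21 ± 0.07, adjusted p = 0.233). Trav counts per 100 Trac counts were 9.76, 19.8, 36.2, 10.4 and 25.6 in iRTE, 14.3, 15.1, 14.3, 14.4 and 14.1 in Artificial CD8, 12.05, 12.7 and 10.55 in CD4+CD8+ and 23.2, 22.8, 22.2, 19.7 and 20.2 in splenic libraries. The iRTE libraries covered the widest range, with iRTE 3 highest and iRTE 1 lowest of all 18.

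Across the whole table of 13922 genes tested, most called segment genes were lower in cultured than in splenic cells. In iRTE over splenic cells 7 of the 115 segment genes that passed the filter were higher and 89 lower (edgeR adjusted p under 0.05; 58.2% of all genes were called, 29.2% higher and 29.0% lower). In Artificial CD8 over splenic cells 7 were higher and 73 lower (60.6% of all genes called, 30.3% higher and 30.2% lower), and in CD4+CD8+ over splenic cells 9 were higher and 54 lower (56.2% called, 28.9% higher and 27.4% lower). The median log2 fold change of the segment genes was -2.69 in iRTE over splenic cells, against -0.05 over all genes tested. It was -1.87 in Artificial CD8, against -0.03, and -1.64 in CD4+CD8+ over splenic cells, against -0.03. The 3 comparisons share the splenic libraries, and segments high only in spleen could pass the filter through spleen alone, so these counts describe the members that passed.

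Between the cultured groups fewer segment genes were called. iRTE over Artificial CD8 gave 6 higher and 22 lower (38.7% of all genes called, 20.0% higher and 18.7% lower), iRTE over CD4+CD8+ cells 1 higher and 25 lower (24.2% called, 11.8% higher and 12.3% lower), and Artificial CD8 over CD4+CD8+ cells 1 higher and 11 lower (14.7% called, 6.54% higher and 8.12% lower). Counted in both directions, the shares of segment genes called were below those of all genes, with most of the called segment genes on the lower side. Without iRTE 5, iRTE over Artificial CD8 gave 48 calls, and with only these groups in the fit it gave 6.

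By role, all called J segments were lower than in spleen, where all genes tested gave 29.0% lower in iRTE, 30.2% in Artificial CD8 and 27.4% in CD4+CD8+ cells. These counts too are over rows that passed the filter, in part through the splenic libraries. Of 41 Traj tested, 40 were lower in iRTE than in splenic cells, 31 in Artificial CD8 and 30 in CD4+CD8+ cells, and none was higher. Of 41 Trav tested, 30 were lower and 2 higher in iRTE, 28 lower and 3 higher in Artificial CD8, and 14 lower and 2 higher in CD4+CD8+ cells. The 14 Trbv tested went both ways, with 4 lower and 4 higher in iRTE, 3 lower and 3 higher in Artificial CD8, and 0 lower and 5 higher in CD4+CD8+ cells. Of 14 Trbj tested, 11 were lower in iRTE, 9 in Artificial CD8 and 9 in CD4+CD8+ cells, and none was higher.

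**Figure D5:**
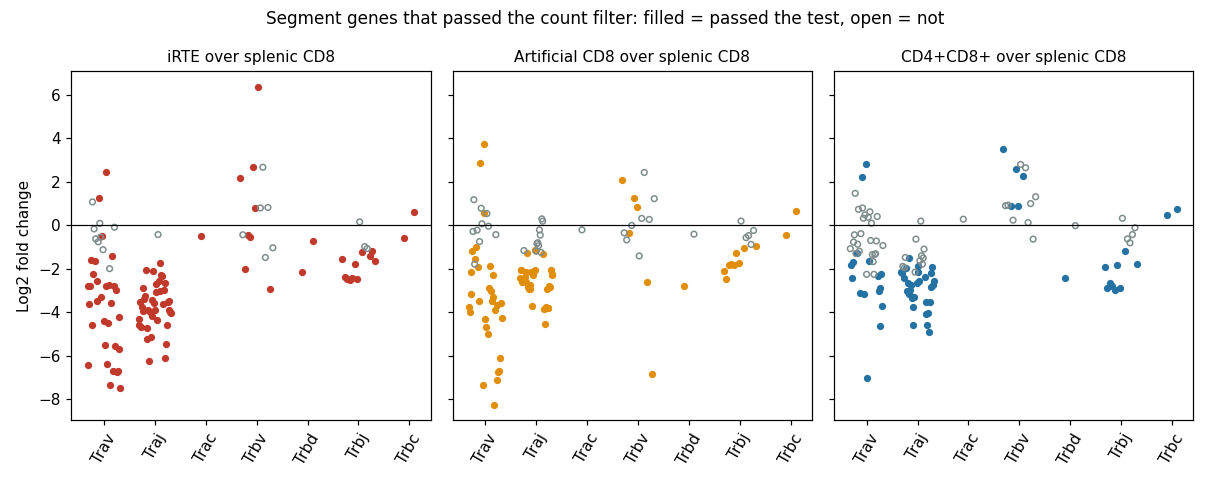
Log2 fold change over splenic CD8 cells of each segment gene that passed the count filter, by segment type, for iRTE, Artificial CD8 and CD4+CD8+ cells; filled points passed the edgeR test and open points did not. Trav, Traj and Trbj points lie mostly below 0, and Trbv points on both sides.

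Genes that build, carry and drive the receptor were counted from lists. Over the whole table, calls were higher for 20.0% of genes and lower for 18.7% in iRTE over Artificial CD8, 11.8% and 12.3% in iRTE over CD4+CD8+, and 6.54% and 8.12% in Artificial CD8 over CD4+CD8+ cells. Against splenic cells 29.2% were higher and 29.0% lower in iRTE, 30.3% and 30.2% in Artificial CD8, and 28.9% and 27.4% in CD4+CD8+ cells. The lists are short and are described by their counts alone. Of 12 recombination genes, which cut, trim and seal the segments, 8 were lower and 0 higher in iRTE than in CD4+CD8+ cells, and 5 were lower and 1 higher in iRTE than in Artificial CD8 cells. Rag1, the recombinase subunit that cuts DNA, was singled out after its values were seen. It had 0, 0, 0.0885, 0 and 3.07 CPM in iRTE, 161, 149, 169, 149.7 and 136 CPM in Artificial CD8, 258, 445 and 463 CPM in CD4+CD8+ and 0 CPM in all 5 splenic libraries. iRTE 5 was the iRTE library with the most Rag1. Against splenic cells, 4 recombination genes were higher and 5 lower in iRTE, 6 higher and 5 lower in Artificial CD8, and 6 higher and 1 lower in CD4+CD8+ cells. Artificial CD8 over CD4+CD8+ cells gave 0 higher and 2 lower.

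Of 11 factors known to bind the alpha or beta enhancers, 9 were lower in iRTE than in Artificial CD8 cells and 0 higher, and against CD4+CD8+ cells 6 were lower and 0 higher. Against splenic cells, 3 were higher and 6 lower in iRTE, 8 higher and 1 lower in Artificial CD8, and 6 higher and 3 lower in CD4+CD8+ cells. Artificial CD8 over CD4+CD8+ cells gave 2 higher and 1 lower. Runx1, which binds both enhancers, had 8.83 ± 1.85 CPM in iRTE, 109 ± 8.51 in Artificial CD8, 62.5 ± 0.689 in CD4+CD8+ and 36.6 ± 4.02 in splenic cells (SD; iRTE over Artificial CD8, edgeR adjusted p = 1.81e-12). Of 6 receptor partners, mainly the CD3 chains that signal for the receptor, 4 were higher and 1 lower in iRTE than in Artificial CD8 cells, and 4 higher and 1 lower in iRTE than in splenic cells. iRTE over CD4+CD8+ cells gave 2 higher and 1 lower, Artificial CD8 over CD4+CD8+ cells 0 and 3, Artificial CD8 over splenic cells 2 and 2, and CD4+CD8+ over splenic cells 2 and 1. All 3 gamma constant genes, with no delta gene among them, were higher in every cultured group than in spleen. Tcrg-C2 had 1227 ± 246.6 CPM in iRTE, 1045 ± 58.0 in Artificial CD8, 1046 ± 31.7 in CD4+CD8+ and 30.8 ± 1.19 in splenic cells, and Tcrg-C1 had 457 ± 137 CPM in iRTE, 1003 ± 75.2 in Artificial CD8, 444 ± 123 in CD4+CD8+ and 20.8 ± 1.98 in splenic cells (SD).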

How the data were processed

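RNA was sequenced from 18 sorted samples in 4 groups. The authors deposited raw gene counts for each library. Per the submitters' processing notes, the tools included STAR 2.4.2, Subread and edgeR and the build was mm9. The gene annotation, the strand setting and the treatment of reads matching several genes were not given in the sources used here, so counts of near-identical segments are uncertain. A deposited table of log values was not used, and 0 columns belonged to other samples.

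Library totals ran from 11132768 to 19305751 counts. Genes were filtered with edgeR's filterByExpr, which left 13922 genes, scaled with TMM and tested with edgeR 4.0.16 (R 4.3.3) in its quasi-likelihood test over all 4 groups, with Benjamini-Hochberg adjustment and a threshold of 0.05. Fold changes are the log2 values of the edgeR fit. The SE beside each is that of the difference between group means of log2 CPM, computed with a prior count of 2. It is therefore not the SE of the fitted fold change. Shares within the Trav, Trbv and Trbc totals, from counts not divided by length, were compared by exact two-sided permutation tests (Python 3.11.15, scipy 1.17.1) and adjusted over 24 tests. The smallest raw p was 0.00794 for 5 libraries against 5 and 0.0357 for 5 against 3. Wilson intervals had 95% confidence. A total with a count of 0 allows up to 3 counts. Thinning used 200 draws. Shared use was computed with 50 draws.

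Sequences and windows of 50 bases came from GENCODE M21 transcripts of GRCm38, and no coordinates are given because the counts are on mm9. The text names the constant genes, the 6 Trav and 6 Trbv segments with the highest mean shares, the leading segment of any library, the 3 Traj and 3 Trbj segments with the highest mean CPM, both Trbd segments, the Trav7 family and, from partner lists, up to 2 called genes per comparison with the smallest adjusted p. A gene that this rule selects is not reported here. The members and lists were chosen with earlier results of these data known.

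Replicates did not share a library: the smallest chi-square over its degrees of freedom between replicates was 4.40. Replicate numbers did not pair samples across groups, since the correlation of their deviations ran from -0.0663 to 0.0587 and 0 of 24 pairs exceeded 0.1. The test and share code was tested on simulated data. Alternatives were DESeq2 1.42.0, RLE scaling, no filter, a replicate block, a fit of each pair of groups alone, leaving out each library, and segment totals by family, by minimum counts or without near-identical or dv segments.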

Additional observations from a re-analysis of the deposited data

Results flagged for a closer look

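Of 90 sets of 5 libraries examined, 11 held a library whose distance from its nearest neighbour was large against the range of its group, where chance gives about 1 in 20. Of these libraries 8 were iRTE 5, and the others were Artificial CD8 4 and 5. The sets reuse the same libraries and linked rows, so they are not independent. The number flagged is therefore no test against that rate.

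In iRTE 5 the rows of the first beta D-J cluster were high. Trbd1 was at 33.6 CPM, with the other 4 between 3.19 and 10.8 CPM. Trbj1-1 was at 151 CPM, with the other 4 between 10.4 and 50.2 CPM. Trbj1-2 was at 39.7 CPM, with the other 4 between 7.79 and 14.9 CPM. All 3 rows belong to the first D-J cluster, whose constant gene is Trbc1. The Trbc1 share was 16.5%, with the other 4 between 6.84 and 9.10%.

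The alpha rows of the same library also stood apart. Trav13-4-dv7, which led its V-alpha counts, was at 16.0 CPM, with the other 4 between 0.796 and 2.30 CPM. Trav8-2, the leading segment of several splenic libraries, was at 3.33 CPM, with the other 4 between 0.355 and 1.15 CPM. Among J segments, Traj2 was at 4.61 CPM, with the other 4 between 0.442 and 1.15 CPM, and Traj3 was at 1.73 CPM, with the other 4 between 0.442 and 0.748 CPM. Trav21-dv12 was lowest in this library, and Rag1 was at 3.07 CPM, the most among iRTE libraries. Its part in these values was not tested.

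In Artificial CD8 4 the Trav7 family share was 0.961%, with the other 4 between 1.40 and 1.54%. In Artificial CD8 5, Trav15-2-dv6-2 was at 10.002 CPM, with the other 4 between 12.04 and 12.4 CPM, and Trbv16 was at 1.91 CPM, with the other 4 between 0.533 and 0.925 CPM.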

How the results depend on the processing

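Counts of segment genes called held within 1.5 times under most alternatives. Fitting 2 groups alone gave 6 for iRTE over Artificial CD8 and 4 for iRTE over CD4+CD8+ cells. DESeq2 gave 19 for Artificial CD8 over CD4+CD8+ cells. With iRTE 1 to 3 as the only iRTE libraries the counts were 47 for iRTE over Artificial CD8 and 44 for iRTE over CD4+CD8+ cells. Leaving out single libraries gave 19 to 48 for iRTE over Artificial CD8, 85 to 97 for iRTE over splenic CD8, 73 to 79 for Artificial CD8 over splenic CD8, 19 to 38 for iRTE over CD4+CD8+, 8 to 10 for Artificial CD8 over CD4+CD8+, 50 to 57 for CD4+CD8+ over splenic CD8. The highest of these for iRTE over Artificial CD8, 48, was without iRTE 5. The causes were not tested.

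The Trbv14 share difference ranged over single libraries left out from -0.295 to 0.0788 for iRTE over Artificial CD8, 2.18 to 2.56 for iRTE over splenic CD8, 2.43 to 2.54 for Artificial CD8 over splenic CD8, 2.07 to 2.44 for iRTE over CD4+CD8+, 2.25 to 2.52 for Artificial CD8 over CD4+CD8+, -0.0370 to 0.226 for CD4+CD8+ over splenic CD8. For Trav21-dv12 these were 8.91 to 27.8 for iRTE over Artificial CD8, 17.03 to 35.9 for iRTE over splenic CD8, 7.42 to 8.79 for Artificial CD8 over splenic CD8, 11.8 to 30.7 for iRTE over CD4+CD8+, 2.19 to 3.56 for Artificial CD8 over CD4+CD8+, 5.04 to 5.52 for CD4+CD8+ over splenic CD8. For the Trav7 family they were 0.266 to 0.837 for iRTE over Artificial CD8, -4.35 to -3.61 for iRTE over splenic CD8, -4.89 to -4.25 for Artificial CD8 over splenic CD8, -3.12 to -2.50 for iRTE over CD4+CD8+, -3.51 to -3.14 for Artificial CD8 over CD4+CD8+, -1.504 to -0.870 for CD4+CD8+ over splenic CD8. For Trbc1 they were -2.06 to 0.345 for iRTE over Artificial CD8, -11.3 to -8.88 for iRTE over splenic CD8, -9.36 to -9.07 for Artificial CD8 over splenic CD8, -8.31 to -5.90 for iRTE over CD4+CD8+, -6.83 to -5.74 for Artificial CD8 over CD4+CD8+, -3.48 to -2.398 for CD4+CD8+ over splenic CD8. With iRTE 1 to 3 alone, iRTE over splenic cells gave 2.61 for Trbv14, -4.22 for Trav7 and -11.7 for Trbc1, none past the threshold, and Trbv14 gave 0.131 over Artificial CD8. With iRTE 4 and 5 alone the values against spleen were 1.90 for Trbv14, -3.62 for Trav7 and -6.45 for Trbc1, where the smallest exact p is 0.0952. Trav21-dv12 then gave -4.57 over Artificial CD8 and -1.68 over CD4+CD8+ cells, and Trbc1 gave 2.78 over Artificial CD8.

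The replicate block changed no difference but ended all 7 share calls (iRTE over splenic cells 2.32 for Trbv14, -3.98 for Trav7 and -9.58 for Trbc1, and Artificial CD8 over splenic cells 2.48 for Trbv14, 8.13 for Trav21-dv12, -4.62 for Trav7 and -9.23 for Trbc1; exact sign flips over 5 pairs, adjusted p = 0.214, smallest raw p 0.0625). Counts of segment genes called with the block were 24 for iRTE over Artificial CD8, 95 for iRTE over splenic, 78 for Artificial CD8 over splenic, 19 for iRTE over CD4+CD8+, 8 for Artificial CD8 over CD4+CD8+ and 55 for CD4+CD8+ over splenic cells. The numbers do not pair the samples.

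The effective number of Trav segments in iRTE, Artificial CD8, CD4+CD8+ and splenic cells was 4.64, 6.88, 9.41 and 11.8 by family, and, as choices made after seeing the data, 5.25, 7.15, 9.67 and 16.4 on segments with few shared windows and 5.94, 5.63, 9.93 and 19.97 without dv segments. Leaving out libraries gave 5.31 to 7.95 in iRTE, 9.05 to 9.21 in Artificial CD8, 13.5 to 14.9 in CD4+CD8+ and 24.5 to 25.0 in splenic cells, and at most 1.10 for Trbv. The Trav21-dv12 share could not be computed without dv segments, being one itself.

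Among named genes, 6 values reversed: with iRTE 4 and 5 alone, Trav21-dv12 (-0.78) and Trbv15 (-1.82) in iRTE over splenic cells and Trbv15 (-0.41) in iRTE over Artificial CD8; with iRTE 1 to 3 alone, Trbj1-2 in iRTE over Artificial CD8 (-0.80, and from -0.57 without iRTE 5 to 0.24 without iRTE 3) and Trbd1 in iRTE over CD4+CD8+ cells (-0.75). Another 2231 kept direction and call, 120 lost and 67 gained the call, and 91 changed sign without passing under either setting. Trav totals of 535 to 2311 counts limit every V-alpha share.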
